A study of Mus musculus with 9 samples.

Results

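The cytosolic ribosomal protein genes are 50 genes, of 18193 measured, whose array gene symbol begins with Rpl or Rps and a digit, or is Rplp0, Rplp2 or Rpsa, with the Rps6k kinases and pseudogenes left out. They were measured in mouse bone marrow progenitors on 9 Affymetrix arrays, 3 in each of 3 groups. The LSK group holds lineage-negative cells that carry Kit and Sca1, a fraction that contains the stem and multipotent cells, and the GMP groups hold granulocyte-macrophage progenitors. LSK WT and GMP WT came from Ncstn flox/flox mice without Cre, and GMP NcstnKO from Ncstn flox/flox Mx1-cre+ mice, in which the gene for nicastrin, a subunit of the gamma-secretase protease, is deleted. Mice of all 3 groups were given polyIC, 3 injections of 20 micrograms per gram body weight on alternate days from 14 days of age, and were 6 weeks old at analysis, 4 weeks after injection. Mx1-Cre is switched on by interferon and is not limited to 1 cell type. Since only the knockout mice carry Cre, an effect of Cre and the loss of nicastrin cannot be told apart. The labels do not say whether an array holds 1 animal or a pool, so p-values measure only the spread between these samples. For each gene that spread is estimated partly from the spread of all genes.

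Each ribosome is built from a large and a small subunit, and every subunit needs nearly all of its proteins at the same stoichiometry. The messenger RNAs of these proteins typically begin at a C within a run of pyrimidines, the terminal oligopyrimidine or TOP motif. Through it mTOR signalling and the RNA-binding protein LARP1 set how much of them is translated. In blood formation the family is best known from Diamond-Blackfan anaemia, a failure of red cell production caused by loss of 1 copy of a ribosomal protein gene.

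The 50 genes comprised 20 of 43 listed large-subunit symbols, 2 of 3 stalk symbols, 21 of 32 small-subunit symbols, 6 paralogs and Rps19bp1, which is named for binding Rps19 and is not a ribosomal protein. The remaining listed symbols had no probe set with 1 symbol here and were not analysed. The array reports each gene through probe sets, groups of short probes read together as an intensity. The brightest probe set was used for each gene, and its brightness cannot be compared between genes. Ribosomal protein genes have many near-identical processed pseudogenes, and 12 of the 50 probe sets carry the suffix x and 2 the suffix s, which mark probes that can match other transcripts. Their values are uncertain to that extent. A further 110 probe sets that list several symbols, at least 1 of them ribosomal, were left out.

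The sequence around the start site is shown for the 8 genes called in at least 1 comparison, and for Rplp2 and Rpl35 as further examples of a pyrimidine run, chosen after their values were seen. Each stretch is 30 bases, 15 on either side of the RefSeq start site in GRCm38.p6, 5′ to 3′ on the gene's strand. Capitals mark a run of at least 8 C or T.
Rps25, chr9:44407699-44407728, plus strand: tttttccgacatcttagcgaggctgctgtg
Rpl37, chr15:5116598-5116627, plus strand: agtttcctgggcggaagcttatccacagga
Rpl14, chr9:120571502-120571531, plus strand: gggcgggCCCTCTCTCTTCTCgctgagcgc
Rps27l, chr9:66946071-66946100, plus strand: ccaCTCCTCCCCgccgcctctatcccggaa
Rpl39l, chr16:10170213-10170242, plus strand: ctcccaggcctttccggatttccggtggtc
Rpl3l, chr17:24727811-24727840, plus strand: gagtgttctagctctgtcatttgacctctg
Rps6, chr4:86857353-86857382, minus strand: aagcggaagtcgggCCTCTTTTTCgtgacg
Rps27, chr3:90213634-90213663, minus strand: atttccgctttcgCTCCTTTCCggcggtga
Rplp2, chr7:141447636-141447665, plus strand: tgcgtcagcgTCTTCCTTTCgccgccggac
Rpl35, chr2:39005117-39005146, minus strand: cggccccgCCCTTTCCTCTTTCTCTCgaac
Rpl14, Rps6, Rps27, Rplp2 and Rpl35 hold a run that spans the start site, and Rps25, Rpl37, Rpl39l and Rpl3l hold none of 8 bases in this window. The run of Rps27l ends before the start shown. Rps27l and Rpl3l each have another RefSeq start site, not shown, and neither holds a run of 8 bases in its window.

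RefSeq promoters were matched for 44 of the 50 genes, 52 promoters in all. A run of 8 or more C or T within 15 bases of the start was present in 36.5% of these and in 12% of all 32851 promoters. Over the 300 bases from 250 before to 50 after the start, on both strands, CCGGAAG, the ETS-type motif, was found in 40.4% of the ribosomal protein promoters and 8.86% of all. CCATNTT, the YY1-type motif, was found in 30.8% and 16.1%. GGGCGG, the GC box, was found in 53.8% and 35.7%. TATAAA, sought 40 to 15 bases before the start, was found in 1.92% and 1.99%. The reverse of the ETS-type motif, CTTCCGG, begins with pyrimidines and can overlap a run. These matches describe letters and were not set against expression.

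Ncstn read 7.76 to 7.79 (log2 intensity) in GMP NcstnKO, 9.25 to 9.31 in GMP WT and 8.99 to 9.13 in LSK WT, with no overlap between the knockout and the other groups. The 10 LSK markers measured were all called lower in GMP WT than in LSK WT. Of 9 GMP markers 7 were called higher and 2 lower. Kit and Cd34 stand on both lists. Median intensity was 98.3 to 103 on the LSK arrays and 65.4 to 68.6 on the 6 GMP arrays. In 4 GMP arrays the labelled sex went against Xist and Y-linked transcripts. By transcript all 3 knockout arrays are female, while GMP WT and LSK WT each hold 1 female and 2 male arrays.

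In the knockout GMP most of the ribosomal protein genes read almost level with the wild type at their brightest probe set. 1 of the 50 genes, Rps25, rose and none fell (limma, Benjamini-Hochberg adjusted over 18193 genes, adjusted p under 0.05), a share of 2% against 5.7% of all genes, of which 2.44% were called higher and 3.26% lower. At an unadjusted p under 0.05 the count was 5. The median change over the 50 genes was 0.02 on the log2 scale, against 0.06 over all genes, and 41 of the 50 lay within 0.1 of 0. The 3 knockout arrays did not overlap the 3 wild-type arrays for 22 genes, 44%, beside 31.9% of all genes. In bulk RNA, fewer cells of a type and less RNA per cell cannot be told apart.

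**Figure D1:**
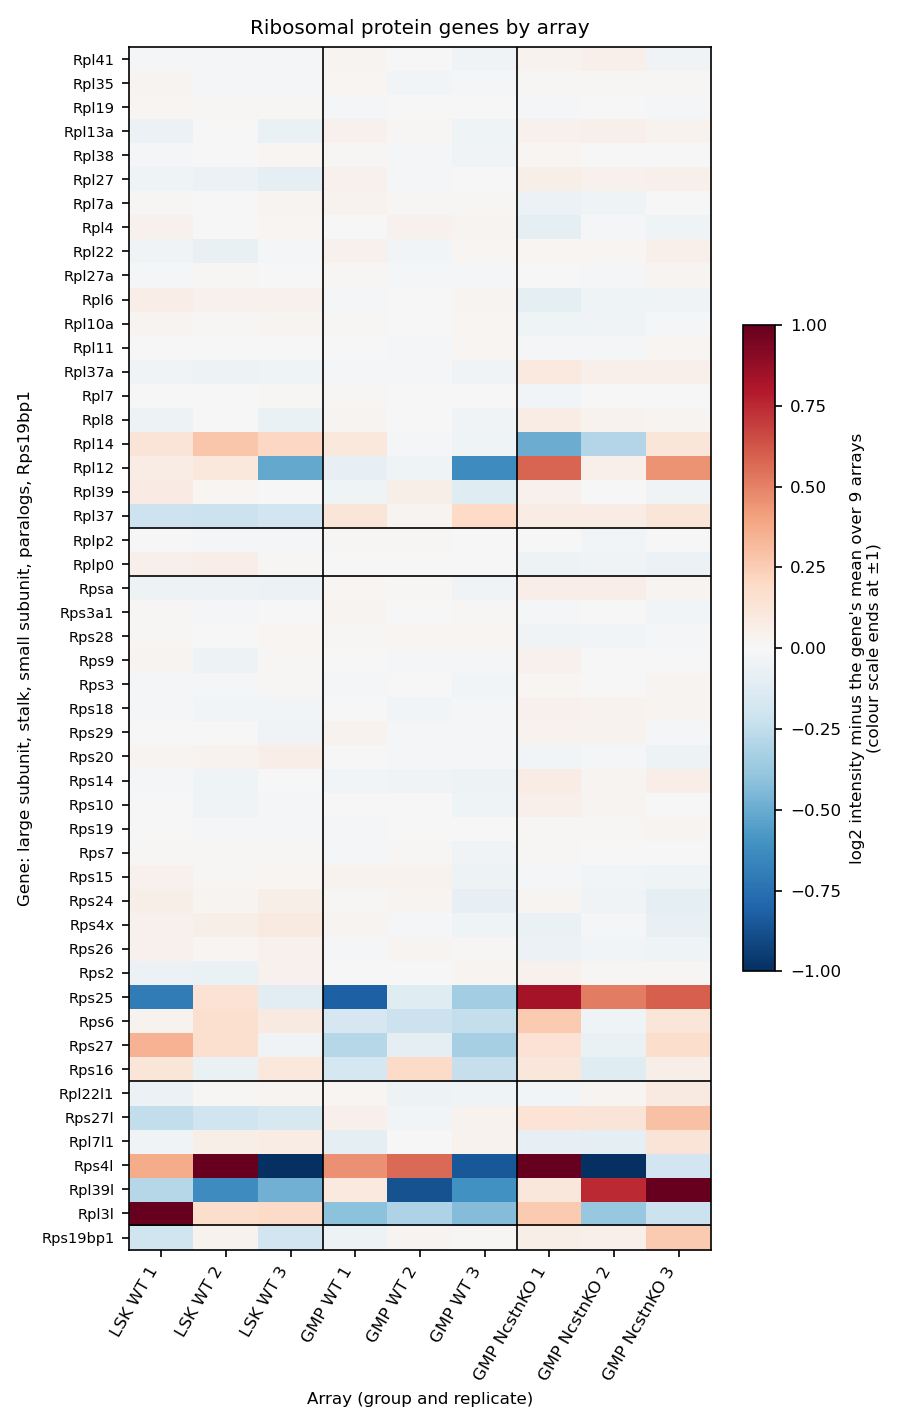
Log2 intensity of each of the 50 genes on each of the 9 arrays, minus the gene's mean over the arrays, with genes grouped as large subunit, stalk, small subunit, paralogs and Rps19bp1. Most rows are pale throughout, and strong colour is limited to a few genes such as Rps25, Rpl12, Rps4l, Rpl39l and Rpl3l.

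Among the 20 large-subunit genes none passed the test between the GMP groups. Rpl4, which lines the peptide exit tunnel, showed the most negative value among genes of mean intensity at least 13 (log2), −0.08 (SE 0.07). Its arrays read 13.98, 13.94 and 13.95 in LSK WT, 13.94, 13.97 and 13.96 in GMP WT and 13.84, 13.92 and 13.89 in GMP NcstnKO. The knockout arrays were thus the lowest, by a few hundredths. Rpl37a, a zinc-binding protein of the same subunit, read 13.64, 13.64 and 13.62 in GMP WT and 13.76, 13.71 and 13.71 in GMP NcstnKO, a difference of 0.09 (SE 0.07, adjusted p = 0.467 by limma). Rpl11, which binds the p53 regulator MDM2 when ribosome assembly fails, read 13.67 to 13.70 on all 6 GMP arrays. Rpl7 differed by −0.01 (SE 0.07) and Rpl22 by 0.02 (SE 0.07).

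Rpl12, which sits at the base of the stalk, varied most among large-subunit genes. Its values were 10.35, 10.37 and 9.76 in LSK WT, 10.18, 10.23 and 9.64 in GMP WT, and 10.85, 10.32 and 10.72 in GMP NcstnKO. The knockout arrays lay above those of GMP WT but overlapped LSK WT. The difference from GMP WT was 0.61 (SE 0.23, adjusted p = 0.142 by limma). It did not pass the threshold.

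The stalk recruits the elongation factors to the ribosome. Rplp0, its base, read 13.81, 13.80 and 13.81 in GMP WT and 13.76, 13.77 and 13.75 in GMP NcstnKO. Rplp2, one of its acidic proteins, read 14.31 on all 3 GMP WT arrays and 14.30, 14.28 and 14.30 in GMP NcstnKO. In both the knockout arrays lay below without overlap, by differences of −0.05 (SE 0.07) and −0.02 (SE 0.07) that did not pass the test.

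Of the 21 small-subunit genes, 1 rose and none fell in the knockout. Rps25, a small-subunit protein known for its part in initiation at some viral internal entry sites, read 10.16, 11.01 and 10.75 in LSK WT. It read 10.05, 10.74 and 10.51 in GMP WT and 11.70, 11.37 and 11.46 in GMP NcstnKO. All 3 knockout arrays lay above all 6 others. The difference from GMP WT was 1.08 (SE 0.24, 2.11-fold, adjusted p = 0.0399 by limma). This call ended without any 1 of the 6 GMP arrays or without LSK WT replicate 3, where the adjusted p ran from 0.0571 to 0.127. It also ended with the GMP groups fitted alone (0.0529), with the replicate number as a block (0.0546), with sex as labelled (0.156) or by transcript (0.0639), and with the Actb ratio below as a covariate (0.482). Same-numbered GMP NcstnKO and GMP WT arrays did not deviate together, so the block does not stand for a pairing there.

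Rps6, the substrate of the S6 kinases, read 10.52, 10.48 and 10.45 in GMP WT and 10.95, 10.65 and 10.82 in GMP NcstnKO. Rps27, a zinc-finger protein of the small subunit and a Diamond-Blackfan gene, read 8.46, 8.65 and 8.42 in GMP WT and 8.90, 8.68 and 8.92 in GMP NcstnKO. Neither overlapped, and the differences of 0.32 (SE 0.09, adjusted p = 0.0808 by limma) and 0.32 (SE 0.12, adjusted p = 0.153) did not pass. Rpsa, also known as the laminin receptor, read 14.22, 14.21 and 14.16 in GMP WT and 14.26, 14.26 and 14.23 in GMP NcstnKO, a difference of 0.06 (SE 0.07). Rps19, the gene most often mutated in Diamond-Blackfan anaemia, differed by 0.02 (SE 0.07) and Rps26, another, by −0.05 (SE 0.07). Rps4x, an X-linked gene, differed by −0.05 (SE 0.07). Over the 11 Diamond-Blackfan genes measured, none was called between the GMP groups, with a median of 0.02.

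None of the 6 paralogs was called between the GMP groups. Rpl39l, a paralog of the exit-tunnel protein Rpl39 known from the testis, read 5.58, 5.24 and 5.39 in LSK WT. It read 5.96, 5.00 and 5.27 in GMP WT and 5.98, 6.61 and 7.79 in GMP NcstnKO. The knockout arrays ran from just above the highest GMP WT array to far above it, and the difference from GMP WT was 1.38 (SE 0.42, adjusted p = 0.0890 by limma). Its parent Rpl39 differed by 0.04 (SE 0.08). Rps27l, a p53 target paralogous to Rps27, read 13.02, 12.94 and 13 in GMP WT and 13.10, 13.10 and 13.26 in GMP NcstnKO, a difference of 0.17 (SE 0.08, adjusted p = 0.246). Rpl22l1, the paralog of Rpl22, differed by 0.06 (SE 0.08), and Rpl7l1, related to Rpl7, by 0.0048 (SE 0.09). Rps4l ran from 5.35 to 7.83 in LSK WT, from 5.97 to 7.38 in GMP WT and from 5.72 to 8.04 in GMP NcstnKO, so its replicates spread wider than any difference between groups. Rps19bp1, which also binds the deacetylase SIRT1, differed by 0.13 (SE 0.10, adjusted p = 0.459 by limma).

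**Figure D2:**
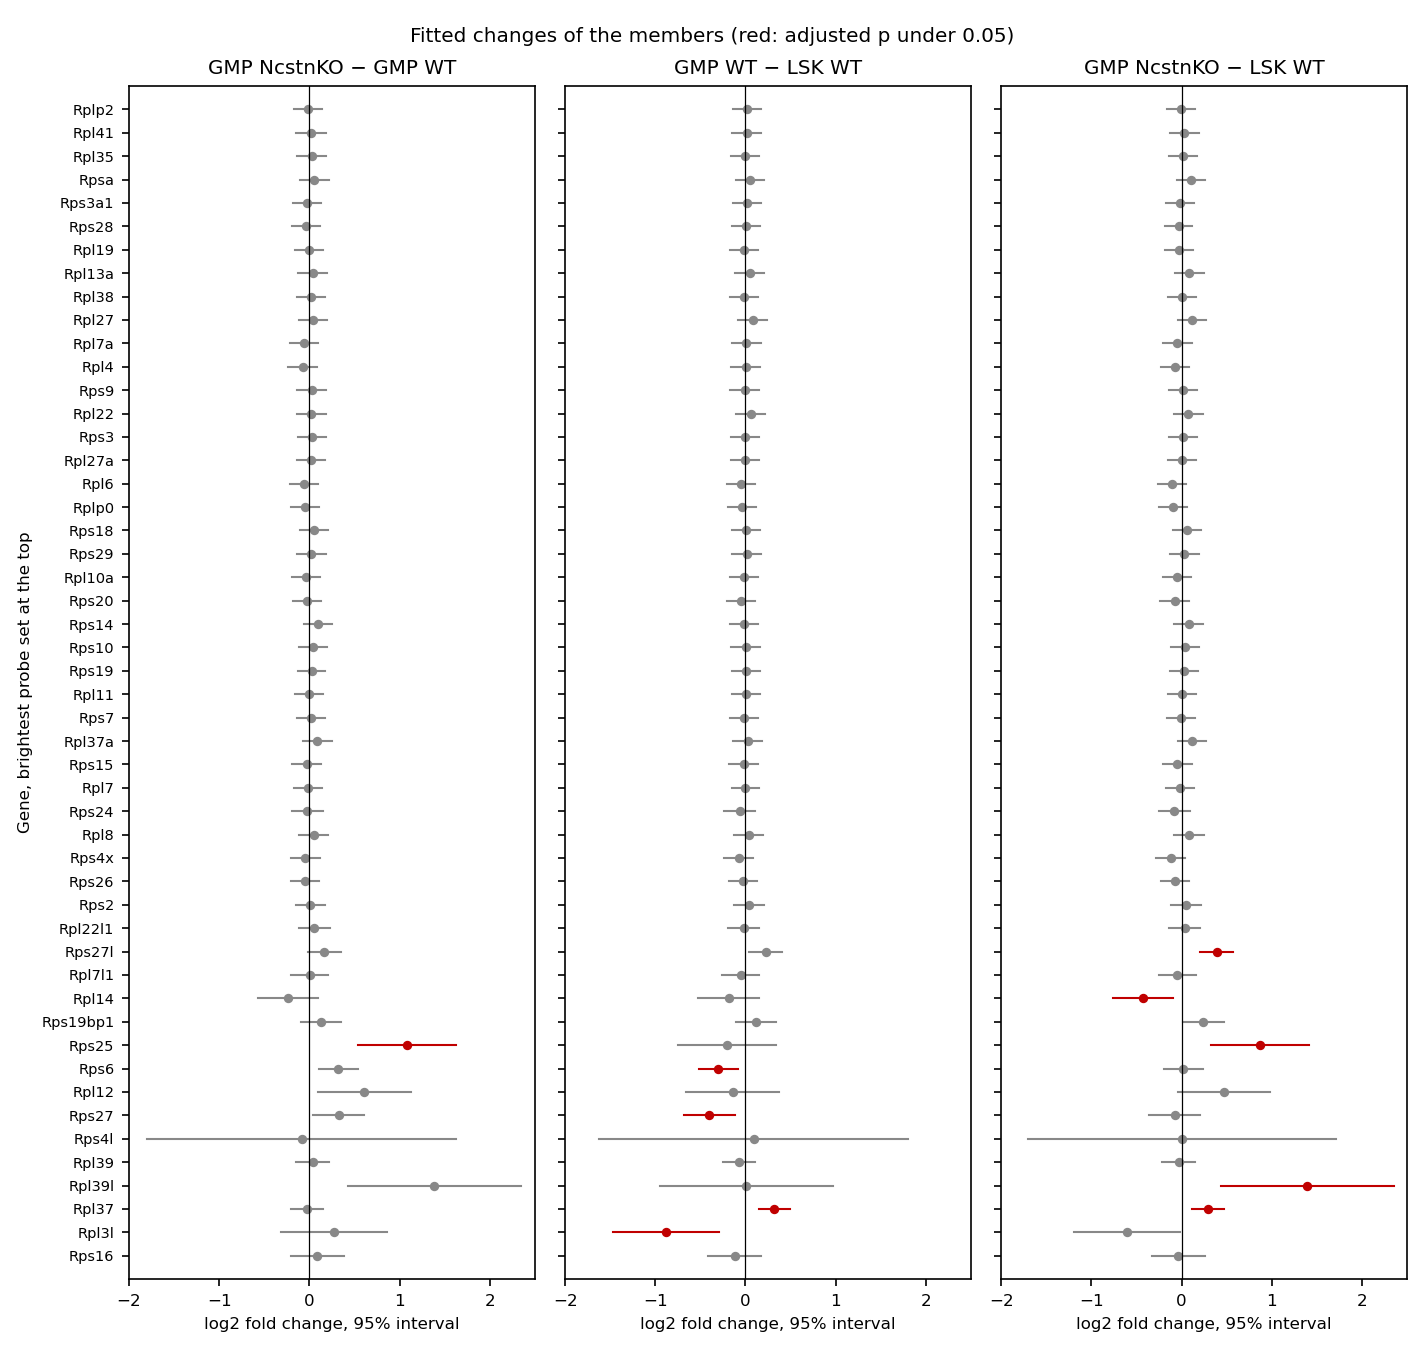
Fitted log2 difference of each of the 50 genes with its 95% interval in the 3 comparisons, genes ordered by mean intensity with the brightest at the top and called genes in red. The brighter genes lie close to 0 with short intervals, and every red point belongs to a gene in the dimmer part of the list.

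Between LSK WT and GMP WT few of the ribosomal protein genes were called. 1 gene rose and 3 fell in GMP WT, 8% of the 50, against 38% of all genes, of which 7.48% were called higher and 30.5% lower. The median change was −0.01 for the 50 genes and −0.18 for all genes, and 40 of the 50 lay within 0.1 of 0. The groups did not overlap for 15 genes, 30%, against 54.6% of all genes. These counts come from a fit without pairing. With the replicate number as a block, which pairs these arrays, 1 rose and 1 fell. The direction depends on how arrays are scaled: with each array centred on its 75th percentile, 41 rose and none fell, with a median of 0.34 over the genes and 0.17 over all genes. With quantile normalization 2 rose and none fell, with medians of −0.01 and 0.05. The count of 4 fell to 1 without GMP WT replicate 1 or 3 and to 2 without GMP WT replicate 2 or LSK WT replicate 1 or 2.

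Markers of other cell types moved between these groups as well. Late neutrophil markers summed to 16.2 to 16.6 (log2) in LSK WT and 15.1 to 15.5 in GMP WT, with all 9 called lower. B cell markers read 12.9 to 13.6 and 11.5 to 11.9, with 6 of 7 lower, and erythroid markers 15.3 to 15.5 and 14.4 to 15.1, with 5 of 10 lower. Mast, basophil and eosinophil markers read 13.3 to 14.0 and 15.1 to 15.5, with 7 of 8 higher. Of 7 megakaryocyte markers 5 were called lower. Of 8 T and NK markers 5 were lower and 1 higher. Stromal markers (6 genes) and monocyte and macrophage markers (8 genes) each had 2 lower and 1 higher. In GMP NcstnKO the late neutrophil list read 15.6 to 15.8, the B cell list 11.4 to 12.6 and the mast, basophil and eosinophil list 14.9 to 15.2. Their part in the ribosomal protein values was not tested.

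Rps27 and Rps6 were the core genes called lower. Rps27 read 9.10, 8.91 and 8.72 in LSK WT, all above the 3 GMP WT arrays, and the difference was −0.40 (SE 0.12, adjusted p = 0.0326 by limma). Rps6 read 10.73, 10.85 and 10.78 in LSK WT, again all above GMP WT, and the difference was −0.30 (SE 0.09, adjusted p = 0.0342). Both calls ended with the replicate block (0.0518 and 0.0595) and with the Actb ratio described below (0.101 and 0.197). They also ended with either of the other scalings. The direction turned for Rps27 with quantile normalization (log2 difference 0.0463) and for Rps6 with the 75th percentile (log2 difference 0.0465), and neither was called. Without 1 array the Rps27 call ended for LSK WT replicates 1 and 2 and GMP WT replicates 1 and 3 (0.0739 to 0.104), and the Rps6 call for each of the 6 arrays of both groups (0.0551 to 0.0949). GMP NcstnKO differed from LSK WT by −0.08 (SE 0.12) for Rps27 and 0.02 (SE 0.09) for Rps6, and its arrays overlapped those of LSK WT in both genes.

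The other calls concern probe sets near background, defined per array as the 95th percentile of the array's background controls. Rpl37, a zinc-binding large-subunit protein, read 4.30, 4.30 and 4.32 in LSK WT, at background on all 3 arrays, and 4.63, 4.54 and 4.71 in GMP WT. It was at least 1.17-fold higher in GMP WT (adjusted p = 0.0114 by limma), the LSK level being set to the background limit. Rpl3l, the paralog of Rpl3 in heart and skeletal muscle, read 5.47, 4.53 and 4.54 in LSK WT. GMP WT, at 3.94, 4.05 and 3.92, was at background on all 3 arrays, so Rpl3l was at least 1.43-fold lower there (adjusted p = 0.0271), a call that ended under both other scalings (0.0956 and 0.124), with the Actb ratio (0.0972), with log2(intensity + 50) (0.0700) and without any 1 GMP WT array (0.0575 to 0.0733). Rps16, a small-subunit protein, was at background on all 9 arrays with this probe set.

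Knockout GMP and LSK WT share arrays with both comparisons above. Against LSK WT, 4 genes rose and 1 fell in GMP NcstnKO, 10% of the 50, where 46.8% of all genes were called, 14.6% higher and 32.3% lower. The median was 0.01 over the 50 genes and −0.12 over all genes, and 25 genes, 50%, did not overlap, against 56.4%. Centring on the 75th percentile gave 46 higher and none lower, and quantile normalization 8 higher and none lower. Without LSK WT replicate 3 the count was 3.

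Rps27l rose by 0.39 (SE 0.08, 1.31-fold, adjusted p = 0.00416 by limma). Its LSK WT arrays read 12.72, 12.77 and 12.81, below all 6 GMP arrays. All 3 of its probe sets passed, and the call held under every alternative tried. GMP WT stood between, 0.22 above LSK WT (SE 0.08, adjusted p = 0.0563). Rpl39l was 1.39 higher (SE 0.42, adjusted p = 0.0244), Rps25 0.87 higher (SE 0.24, adjusted p = 0.0162) and Rpl37 at least 1.15-fold higher (adjusted p = 0.0126). The call of Rpl39l ended without LSK WT replicate 2 (adjusted p = 0.0702) or 3 (0.0567), with sex by transcript (0.146) and with log2(intensity + 50) (0.0528). That of Rps25 ended without GMP NcstnKO replicate 1 (0.0523) and with the Actb ratio (0.0708), and that of Rpl37 with sex by transcript (0.0543).

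Rpl14, a large-subunit protein, was the gene that fell. It read 11.49, 11.64 and 11.57 in LSK WT, 11.46, 11.35 and 11.32 in GMP WT and 10.87, 11.07 and 11.48 in GMP NcstnKO. GMP NcstnKO replicate 3 sat just under the LSK WT range and the other two well below it. The difference was −0.43 (SE 0.15, adjusted p = 0.0410 by limma). The call ended without any 1 of 8 of the 9 arrays, the exception being GMP NcstnKO replicate 3, with adjusted p from 0.0548 to 0.120. It also ended under 6 of 12 other settings (0.0564 to 0.804), and with arrays centred on the 75th percentile the difference shrank to −0.04.

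**Figure D3:**
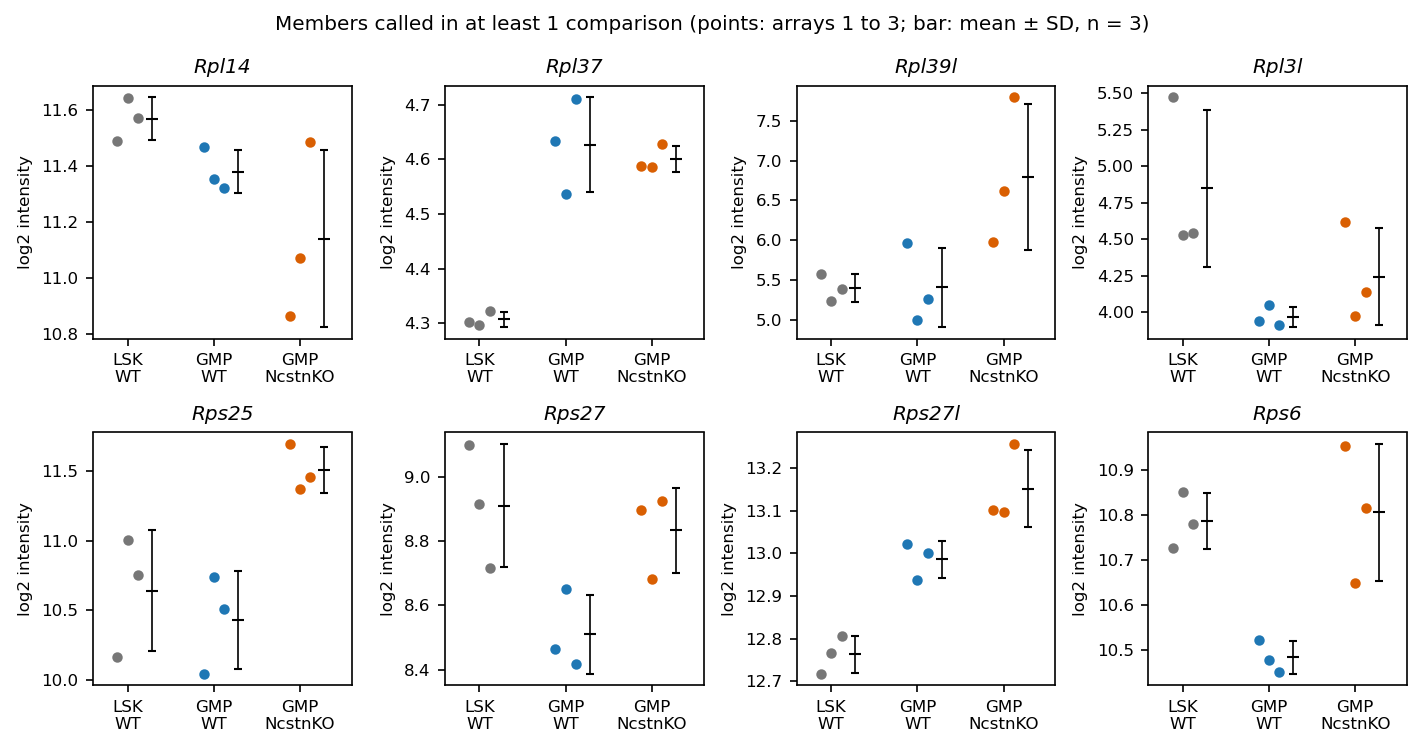
Log2 intensity on each array, with mean and SD of 3 arrays per group, for the 8 genes called in at least 1 comparison. Rps25 is highest on the 3 GMP NcstnKO arrays (11.37 to 11.70), Rps27l is lowest on the 3 LSK WT arrays, and the axes differ between genes and do not begin at 0.

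The genes divided by the brightness of their probe set. A limit of 13 on the log2 scale, chosen after the values were seen, put 35 genes above it. Rps2 (13.15) lay just inside and Rpl22l1 (12.99) and Rps27l (12.97) just outside. The 35 comprised 16 large-subunit, 2 stalk and 17 small-subunit genes. None was called in any of the 3 comparisons by limma, and none had an unadjusted p under 0.05. Between the GMP groups their differences ran from −0.08 to 0.09, and every 95% interval lay within −0.235 to 0.249. Between GMP WT and LSK WT the intervals lay within −0.234 to 0.237 on the deposited scale. Between GMP NcstnKO and LSK WT they lay within −0.280 to 0.275 on that scale. For these 35 the median SE was 0.0688, against a median SD between replicates of 0.0189, since the spread of all genes enters the SE. The limma test therefore cannot tell differences this small from none. Groups did not overlap for 42.9%, 25.7% and 54.3% of the 35, in the order of comparisons above. With an intensity trend in eBayes, calls in the whole family went from 1 to 1, 4 to 5 and 5 to 15 in that order.

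The spread of the 35 between replicates was small, with a median SD of 0.0189 on the log2 scale against 0.162 over all genes. Their means ran from 13.15 (Rps2) to 14.30 (Rplp2), close to the top of the arrays. The highest intensity of any probe set was 20522.9 to 23176.5 per array, before log2 was taken. Whether signals this strong still follow the amount of RNA in proportion was not tested. The 178 other genes above the same limit had a median SD of 0.0522. Of those 178, 1 rose and none fell between the GMP groups, 24 rose and 10 fell from LSK WT to GMP WT, and 34 rose and 13 fell from LSK WT to GMP NcstnKO. After group means were removed, the 595 pairs among the 35 genes had a median correlation of 0.06 over the 9 arrays, which share their normalization.

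The dimmer probe sets of the family numbered 40 above background and came from 29 genes. Between the GMP groups 35 of the 40 were positive (87.5%), against 52.7% of all probe sets of that class. Their median was 0.21, while the 63 bright probe sets ran from −0.08 to 0.11. Of the 40, 1 was called higher and none lower, beside 228 higher and 477 lower of all 28667 probe sets of that class. The mean deviation of the 40 from their own averages was −0.04, −0.11 and −0.27 on the GMP WT arrays and 0.22, 0.02 and 0.23 on the GMP NcstnKO arrays, without overlap. On the LSK WT arrays it was 0.02, 0.07 and −0.14.

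**Figure D4:**
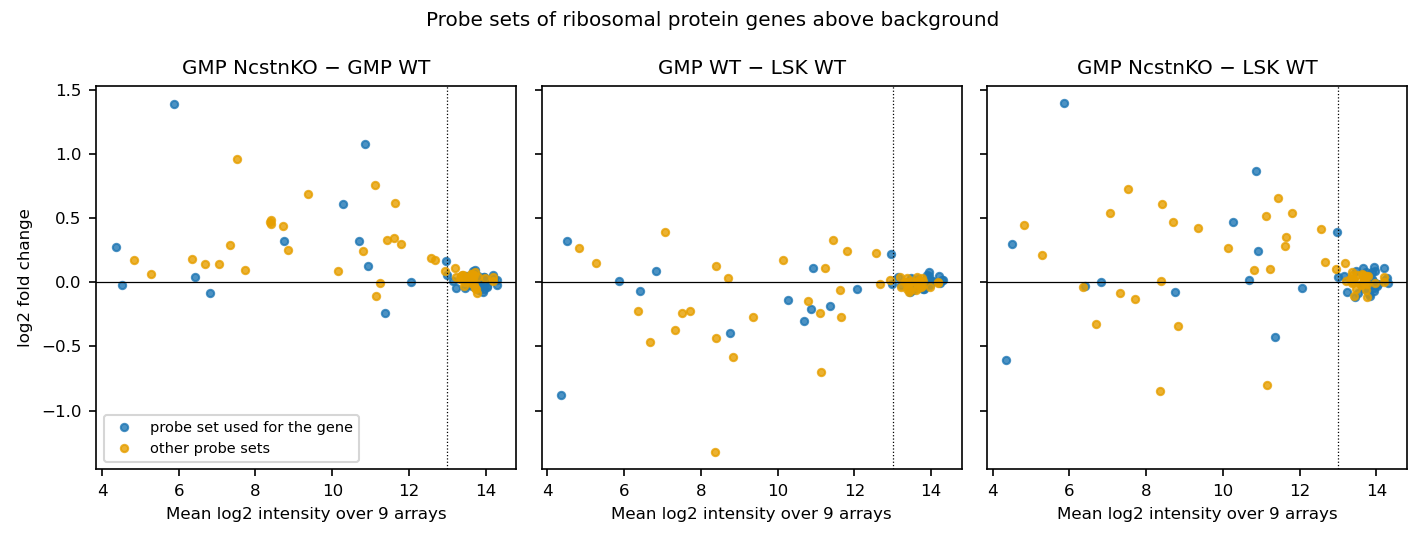
Log2 difference of each ribosomal protein probe set above background against its mean log2 intensity over 9 arrays, in the 3 comparisons, with the probe set used for each gene in blue and others in orange. To the right of the dotted line at 13 the points gather at 0, and to its left 35 of 40 lie above 0 between the GMP groups.

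15 genes had both a bright and a dimmer probe set above background, with 22 dimmer ones. Between the GMP groups the dimmer set differed more than the bright one in 21 of 22, and 20 were positive. Across different genes, larger differences at lower brightness also appeared outside this family, by a measure without sign. The median absolute difference there was 0.07 over the 178 other genes above the limit and 0.17 over all genes. The same count was not made for other genes with a bright and a dimmer set. The examples that follow were chosen after their values were seen, with p-values adjusted over all probe sets. Rpl41, the smallest ribosomal protein, differed by 0.02 with its bright set and by 0.76 (SE 0.15, adjusted p = 0.0473 by limma) with a dimmer one. That dimmer set read 11.00, 10.85 and 10.50 in GMP WT and 11.64, 11.48 and 11.51 in GMP NcstnKO, without overlap. Rps10, a Diamond-Blackfan gene, differed by 0.04 and 0.96 (SE 0.28, adjusted p = 0.110). Rps9, which helps to read the codon accurately, differed by 0.02 and 0.69 (SE 0.19, adjusted p = 0.1).

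From LSK WT to GMP WT 8 of the 22 dimmer sets were positive. Rps24, another Diamond-Blackfan gene, differed by −0.06 with its bright set and by −1.32 (SE 0.26, adjusted p = 0.00558 by limma) with a dimmer one. The dimmer set read 9.40, 9.08 and 8.79 in LSK WT, 8.07, 7.85 and 7.39 in GMP WT and 8.74, 8.05 and 7.93 in GMP NcstnKO. Rpl22, whose protein also binds RNA outside the ribosome, differed by 0.06 and −0.70 (SE 0.11, adjusted p = 0.00203). Which transcript or part of a transcript each set detects was not examined.

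The ratio of the 3′ to the 5′ control probe sets of Actb, a sign of RNA quality, moved with the dimmer sets. It was 0.899 ± 0.140 (log2, SD, n = 3) in GMP NcstnKO, 0.577 ± 0.111 in GMP WT and 0.748 ± 0.108 in LSK WT. The GMP groups did not overlap (two-sided exact permutation p = 0.1, the smallest possible with 3 against 3). With that ratio as a covariate 30 of the 40 dimmer sets were positive, with a median of 0.12. With sex by transcript as a covariate 32 were positive. Markers of other cells also differed, and 3 of the 8 lists of other cell types separated the GMP groups without overlap in their summed log2 level. The summed erythroid markers (10 genes, 1 of them at background) read 14.4 to 15.1 in GMP WT and 13.6 to 14.0 in GMP NcstnKO, and late neutrophil markers (9 genes, none at background) 15.1 to 15.5 and 15.6 to 15.8. T and NK cell markers (8 genes, none at background) read 11.2 to 11.5 and 10.3 to 11.0. By single genes, 6 erythroid, 3 of 8 monocyte and macrophage, 2 of 7 megakaryocyte and 1 of 8 T and NK markers were called lower in the knockout, and 1 late neutrophil marker higher. None of the 7 B cell, 8 mast, basophil and eosinophil or 6 stromal markers was called. The part of these lists in the ribosomal protein values was not tested.

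**Figure D5:**
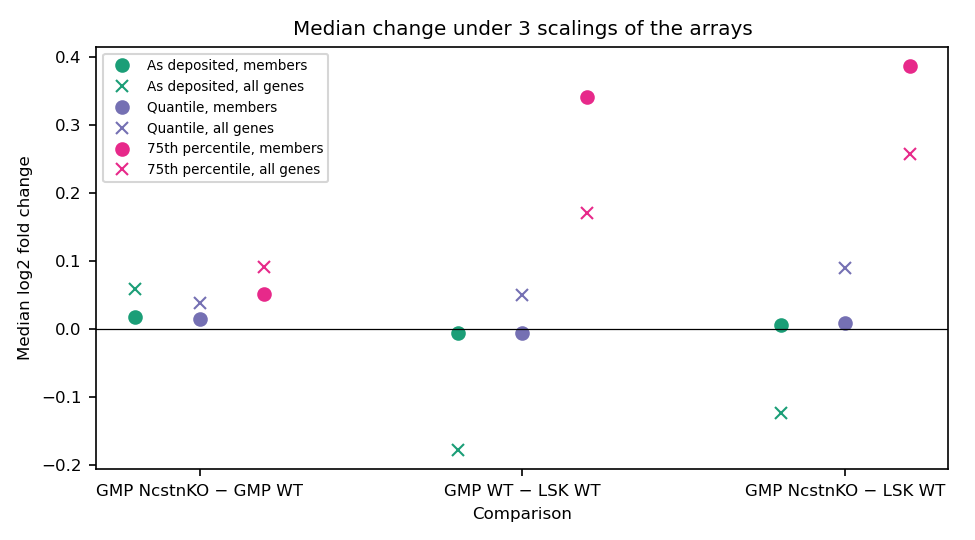
Median log2 difference over the 50 ribosomal protein genes (circles) and over all genes (crosses) in each comparison under 3 scalings of the arrays. The circles stay near 0 with the deposited values and with quantile normalization, and rise to 0.34 and 0.39 for the comparisons with LSK WT when arrays are centred on the 75th percentile.

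Other parts of the translation machinery were read from fixed lists. Larp1, the TOP-binding repressor, fell in GMP NcstnKO from 12.64, 12.75 and 12.74 to 12.15, 12.39 and 12.31, without overlap (−0.43, SE 0.09, adjusted p = 0.0331 by limma), the only one of 11 TOP control genes called between the GMP groups (9.09%, against 5.7% of all genes). This call held under 7 of 12 other settings and in 2 of the 9 fits that each left out an array, with an adjusted p of up to 0.497. Of 10 elongation factor genes 2 fell and none rose (20%): Eef2, the translocase, by 0.30 (SE 0.07, adjusted p = 0.0485) and Eif5a2, an isoform of the hypusinated factor eIF5A, by 0.79 (SE 0.10, adjusted p = 0.0191). The Eef2 call held under 3 of 12 settings and in 0 of those 9 fits, and the Eif5a2 call under 7 of 12 and in 8 of 9. Of 31 initiation factors, 8 other TOP mRNAs and 8 ribosome rescue genes, none was called. Fau, which encodes a further small-subunit protein, differed by 0.06 (SE 0.07).

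From LSK WT to GMP WT, 1 of the 11 TOP control genes rose and 3 fell, 36.4% called against 38% of all genes. Pdcd4, an inhibitor of the helicase eIF4A, rose by 0.33 (SE 0.09, adjusted p = 0.0208 by limma). Mtor fell by 0.43 (SE 0.12, adjusted p = 0.0228) and Tsc1, its upstream inhibitor, by 0.95 (SE 0.27, adjusted p = 0.0243). These calls held under 10, 8 and 9 of 12 settings and in 6, 6 and 3 of 9 fits. Among initiation factors 2 rose and 1 fell (9.68%), and among elongation factors 1 fell (10%), Eif5a2, whose direction turned with quantile normalization. The mitochondrial ribosomal proteins, 76 genes of a separate ribosome, were counted the same way. Between the GMP groups 6 rose and none fell, 7.89% against 5.7% of all genes (2.44% higher and 3.26% lower). From LSK WT to GMP WT 8 rose and 1 fell, 11.8% against 38% (7.48% higher and 30.5% lower). From LSK WT to GMP NcstnKO 40 rose and 2 fell, 55.3% against 46.8% (14.6% higher and 32.3% lower). The medians of the 76 genes were 0.22, 0.10 and 0.33. The difference between both families was not tested.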

How the data were processed

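Messenger RNA was measured in 9 samples on Affymetrix arrays. The authors deposited 1 linear intensity per probe set and array, and the submitters' processing notes name RMA, a summary with background correction and normalization between arrays, with no version. Whether the arrays were normalized together is not given in the sources used here. From there, log2 of the deposited intensity was taken. Of 45101 probe sets, 34945 had 1 symbol, 932 several and 9160 none, and 64 were controls. The brightest single-symbol probe set per gene gave 18193 genes. One limma fit (version 3.58.1, R 4.3.3; lmFit and eBayes) with 3 group means over all 9 arrays tested each gene, with Benjamini-Hochberg adjustment over all genes and a threshold of 0.05; it was tested on simulated data. The number of arrays limits the precision.

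Members and gene lists were chosen with earlier results of these data known. Named genes were up to 6 called members per direction and comparison, the paralogs and their parents, 4 Diamond-Blackfan genes where measured, the stalk and Rpsa, and up to 3 called genes per companion list. Rpl4, Rpl12, Rpl37a and Rps16 and the dimmer probe sets fall outside this rule and were chosen after their values were seen. Same-numbered LSK WT and GMP WT arrays deviated together from their group means (correlations 0.219, 0.238 and 0.291 over genes), so the replicate number was taken to pair them. The main fit does not use this pairing, which enters only through the replicate block. The numbers come from the titles. For GMP NcstnKO, same-numbered arrays did not deviate together with the others (−0.092 to 0.044). Alternatives covered normalization, probe set choice, a filter on dim genes, a floor, covariates, the replicate block and each array left out.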

Additional observations from a re-analysis of the deposited data

How the results depend on the processing

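Which genes were called depended on the processing, while the median change over the 50 genes stayed within 0.06 of 0 except where arrays were centred on the 75th percentile; the cause of these changes was not tested, beyond fewer genes or arrays in a fit. Between GMP NcstnKO and GMP WT the count of 1 became 0 with the groups compared alone, either sex covariate, the Actb ratio, the replicate block or only the bright members, and 2 without x and s probe sets. The median there was 0.0512 with the 75th percentile, 0.0544 with the mean of all probe sets and 0.0378 without x and s probe sets. Between GMP WT and LSK WT the count of 4 became 2 with quantile normalization, 41 with the 75th percentile (median 0.34), 2 without the dimmest 40% of genes, 1 with the Actb ratio, 2 with the replicate block and 0 among the bright members. The median was −0.0178 with the mean of all probe sets. Between GMP NcstnKO and LSK WT the count of 5 became 8 with quantile normalization, 46 with the 75th percentile (median 0.39), 10 with the mean of all probe sets, 3 without the dimmest 40%, 13 with log2(intensity + 50), 3 with sex by transcript, 3 with the Actb ratio, 15 with an intensity trend in eBayes and 0 among the bright members. Leaving out 1 array gave counts of 0 to 1, 1 to 5 and 3 to 5 in the 3 comparisons. Directions turned, with log2 differences in brackets, for Rps27 (0.0463) and Eif5a2 (0.0911) between GMP WT and LSK WT with quantile normalization. With the 75th percentile Rps6 (0.0465) turned in the same comparison. Eef2 (0.0661), Eef2k (0.0747) and Hnrnpa1 (0.15) turned with it between GMP NcstnKO and LSK WT. The 35 positive dimmer probe sets of 40 were 30 to 37 under the alternatives, the lowest with the Actb ratio and with the arrays of female transcripts alone. The intensity trend, the limit on brightness and all alternatives for dimmer probe sets were chosen after seeing the data. Among the genes named, the replicate block ended the calls of Rps25, Rps27, Rps6, Rpl14 (adjusted p = 0.0564 by limma), Eef2, Hnrnpa1 and Larp1 and no other. In the comparisons with GMP NcstnKO the block does not stand for a pairing. The arrays have no depth, and signal near background limits Rpl37, Rpl3l and Rps16.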
